A study of Drosophila melanogaster with 3 samples.

Results

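Chromosome 4 of Drosophila melanogaster held 562 of the 30000 regions called in the pool of 3 anti-GFP chromatin immunoprecipitation and sequencing (ChIP-seq) replicates. A call belonged to the chromosome when the first column of the pooled dm6 list named chromosome 4; no signal value entered that choice. Of the other calls, 29437 lay on the major arms 2L, 2R, 3L, 3R and X, which serve as the comparison throughout. All 3 samples were chromatin of whole embryos of mixed sex, aged 0 to 24 hours, from the transgenic strain CG10565-GFP, in which GFP is joined to the C terminus of the CG10565 protein. The chromatin had been sonicated to 200 to 800 bp and precipitated with an antibody against GFP. The replicates carry the numbers 1, 2 and 4 and form 1 group, CG10565-eGFP, with no second genotype, treatment or stage. The material is 1 tagged line, and whole embryos of a wide age range mix all cell types, so a weak call in many cells and a strong call in few cells cannot be told apart.

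Chromosome 4, also called the fourth or dot chromosome, is the smallest of the fly's chromosomes. It is rich in repeats and largely packaged with heterochromatin protein 1a and methylated histone H3 lysine 9, yet it carries many active genes, and the protein Pof binds it along its length. The tagged protein contains a J domain and resembles human DNAJC2, which helps nascent chains fold at the ribosome and has been reported on chromatin as well. In the Release 6 assembly the chromosome is 1.35 Mb long, or 1.01% of the length of chromosome 4 and the major arms together. Its sequence has a GC content of 35.2%, against 42.2% on the major arms, and annotated transposable elements cover 24.8% of it, against 5.74% of the major arms. The annotation gives it 118 genes, of which 80 are protein-coding.

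Among the members, 6 calls also belonged to the authors' list of regions that rank alike across replicates by the irreproducible discovery rate (IDR). The summits and 100 bp on either side of 5 of these 6 calls are printed here because they are among the 6 calls of highest signal on the chromosome and lie in AT-rich sequence. The call in the 3′ UTR of Cals is described without its sequence. Sequences are from the RefSeq copy of Release 6 (dm6), plus strand, 5′ to 3′. Capitals mark matches on either strand to the GAGA factor letters GAGAG, to CGATA, to the TATA box letters TATAAA and to the A tract AAAAAAAA, and each sequence is named by the gene of the nearest transcription start site (TSS).
lncRNA:CR43437, chr4:424726-424926: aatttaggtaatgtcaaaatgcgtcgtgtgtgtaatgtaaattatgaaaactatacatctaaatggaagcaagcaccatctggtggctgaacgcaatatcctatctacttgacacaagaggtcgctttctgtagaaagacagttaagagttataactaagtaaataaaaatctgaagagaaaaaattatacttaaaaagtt
zfh2, chr4:497794-497994: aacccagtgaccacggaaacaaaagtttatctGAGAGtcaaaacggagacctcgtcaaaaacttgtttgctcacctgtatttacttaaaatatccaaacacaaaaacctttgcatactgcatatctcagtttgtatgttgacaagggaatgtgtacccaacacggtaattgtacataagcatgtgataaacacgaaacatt
gw, chr4:660026-660226: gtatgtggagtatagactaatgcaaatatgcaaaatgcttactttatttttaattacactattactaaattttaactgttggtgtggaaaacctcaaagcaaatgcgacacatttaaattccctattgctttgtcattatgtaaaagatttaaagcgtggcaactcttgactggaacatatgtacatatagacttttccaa
Sox102F, chr4:807468-807668: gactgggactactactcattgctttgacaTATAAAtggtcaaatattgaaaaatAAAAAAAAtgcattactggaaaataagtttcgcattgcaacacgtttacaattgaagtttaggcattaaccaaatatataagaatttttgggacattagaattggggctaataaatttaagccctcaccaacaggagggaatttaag
RpS3A, chr4:67214-67414: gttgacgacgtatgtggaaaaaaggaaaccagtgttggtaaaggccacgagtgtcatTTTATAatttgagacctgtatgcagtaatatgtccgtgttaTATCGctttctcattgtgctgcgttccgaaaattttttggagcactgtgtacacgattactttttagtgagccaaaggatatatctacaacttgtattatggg

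The windows at lncRNA:CR43437 and gw held none of these 4 motifs. The zfh2 window held GAGAG, the letters bound by GAGA factor. The Sox102F window held TATAAA and AAAAAAAA, and the RpS3A window held TATAAA and CGATA with both matches on the minus strand. CGATA is the core recognised by the insulator protein BEAF-32. The GC content of the 5 windows ran from 30.8% at gw to 38.8% at RpS3A. A match says only that the letters are present in the window.

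Chromosome 4 was more densely called than any major arm in the pooled list and in replicates 1 and 4, and less densely than the arms as a whole in replicate 2. The pooled list had 417 calls per Mb on chromosome 4 and 222 calls per Mb on the major arms, a ratio of 1.88. Replicate 1 had 636 calls on chromosome 4, or 472 per Mb, against 222 per Mb on the arms. Replicate 4 had 736 calls there, or 546 per Mb, against 221 per Mb on the arms. Replicate 2 had 249 calls there, or 185 per Mb, against 224 per Mb on the arms. Each list held 30000 calls in all, so a higher share in one place leaves fewer calls for the others. Read counts were not analysed here and the depth of each replicate is unknown.

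The ratio of chromosome 4 to the major arms was 2.13 in replicate 1, 0.823 in replicate 2 and 2.47 in replicate 4. Its log2 averaged 0.71 ± 0.86 (SD, n = 3), and an exact sign-flip permutation test over the 3 replicates, two-sided, gave p = 0.5 (0.5 after Benjamini-Hochberg adjustment over the 5 measures tested). With 3 replicates the smallest p of this test is 0.25, so no measure here could pass 0.05. The test gives 0.25 whenever all 3 replicates share a sign, whatever their spread, and it concerns only these samples. Without replicate 2 the mean log2 ratio was 1.20. The difference was therefore smaller than the spread between replicates, and replicate 2 alone carried the opposite sign. Among the major arms the pooled density ran from 180.2 calls per Mb on X to 250.4 on 2L, a narrower range than that between the 3 replicates on chromosome 4.

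**Figure D1:**
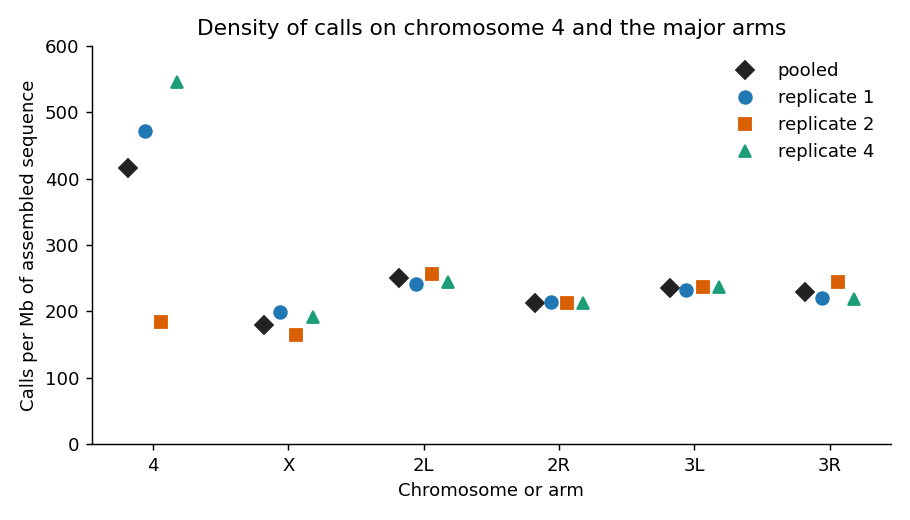
Calls per Mb of assembled sequence (y axis) on chromosome 4 and on each major arm (x axis), with a symbol for the pooled list and for each replicate's own list. On chromosome 4 replicate 2 sits at 185 calls per Mb, below the pooled list and replicates 1 and 4 at 417, 472 and 546, while on each major arm the 4 symbols lie close together.

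Calls were spread along most of the chromosome and stopped before its telomeric end. In 100 kb bins the pooled count ran from 20 calls, between 1200001 and 1300000, to 65 calls, between 1000001 and 1100000. The densest bin had 63 calls in replicate 1, 28 in replicate 2 and 76 in replicate 4, so replicate 2 also had its highest count there. The last 48131 bp, of which 95.4% is annotated as transposable elements, held 0 pooled calls, and the last pooled summit lay at 1278762. The median spacing of neighbouring pooled summits was 1499 bp on chromosome 4 and 2397.5 bp on the major arms. Pooled calls covered 15.0% of chromosome 4 and 8.01% of the arms.

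The denser calling was not found among the strongest calls. Of the pooled calls ranked 1 to 1143 by the authors' signal, which is the length of the IDR list, 6 lay on chromosome 4, a density ratio of 0.519 to the arms. Ranks 1144 to 2500 held 2 calls on chromosome 4, a ratio of 0.145. From rank 5001 to 10000 there were 128 calls and a ratio of 2.58, and the weakest band, ranks 20001 to 30000, had 179 calls and a ratio of 1.79. The ratio for ranks 1 to 1143 was also below 1 in each replicate's own list, at 0.519 in replicate 1, 0.606 in replicate 2 and 0.780 in replicate 4, from 6, 7 and 9 calls. In replicate 4 the ratio was 2.07 already in ranks 1144 to 2500, against 0.437 in replicate 1 and 0.730 in replicate 2. Replicate 2 stayed below 1 in all 6 bands, with its highest ratio of 0.993 in ranks 2501 to 5000.

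**Figure D2:**
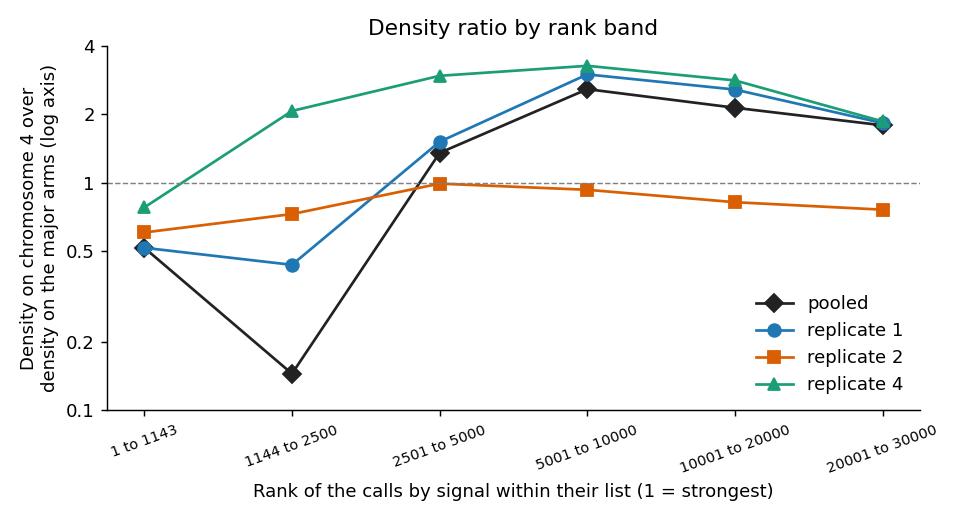
Density of calls on chromosome 4 divided by that on the major arms (y axis, log scale) for bands of rank by signal within each list (x axis, strongest at the left). The pooled list, replicate 1 and replicate 4 rise above 1 in the weaker bands and peak at ranks 5001 to 10000, at 2.58, 3.0 and 3.27, while replicate 2 stays at or below 0.993.

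The middle of the signal range was alike on and off chromosome 4, and the upper tail was shorter on chromosome 4. The median pooled signal was 30.9 on chromosome 4 and 30.9 on the major arms. The upper decile of the signal was 44.8 on chromosome 4 and 62.8 on the arms, and the highest signal was 242.9 on chromosome 4 and 1018 on the arms. Signal comes from the peak caller the authors used and is comparable only within a list, so calls were also ranked within their list from 0 (weakest) to 100 (strongest). The median rank of chromosome 4 calls minus that of arm calls was 2.33 points in replicate 1, -0.473 in replicate 2 and 6.80 in replicate 4, a mean of 2.89 ± 3.67 (SD, n = 3; exact sign-flip permutation test, p = 0.5, adjusted p = 0.5). Without replicate 4 the mean was 0.93 points, and without replicate 2 it was 4.56.

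IDR peaks made up 1.07% of the chromosome 4 calls (6 of 562, 95% Wilson interval 0.490 to 2.31) and 3.86% of the arm calls (1137 of 29437, interval 3.65 to 4.09). Over all pooled calls the share was 3.81%. Intervals here cover counting error only and treat calls as independent. Per Mb, chromosome 4 had 4.45 IDR peaks and the major arms 8.58. The edge of the list fell between the last call inside it on chromosome 4, at RpS3A with a signal of 107.2, and the first outside it, at CG31999 with 95.7; the weakest IDR peak of the genome had 106.0.

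The strongest call on chromosome 4 had its summit at 424826, between genes and 1241 bp upstream of lncRNA:CR43437 (FBgn0263385). Its pooled signal was 242.9, rank 158 of the genome. A rank of a pooled call in a replicate is that of the strongest call of that replicate that overlaps it, and here it was 534 in replicate 1, 92 in replicate 2 and 296 in replicate 4. The call in the 3′ UTR of Cals (FBgn0039928), which encodes a calsyntenin, a transmembrane protein of the cadherin superfamily, followed with a signal of 217.7 and rank 221. Its summit at 1113323 lay 9642 bp downstream of the nearest TSS and 6 bp past the annotated end of sv, the gene on the opposite strand. It ranked 530, 179 and 211 in replicates 1, 2 and 4. Both calls were thus among the strongest 534 of every replicate and neither was at a start site.

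The third call lay between genes, 3916 bp upstream of zfh2 (FBgn0004607), which encodes a zinc finger homeodomain transcription factor. It had a pooled signal of 182.8 and ranked 116 in replicate 1, 638 in replicate 2 and 1067 in replicate 4. The fourth lay 143 bp upstream of an internal start site of gw (FBgn0051992), whose product GW182 acts with Argonaute in silencing by microRNAs. It had a signal of 170.5 and ranked 321, 819 and 352 in replicates 1, 2 and 4. The fifth was 221 bp upstream of an internal start site of Sox102F (FBgn0039938), a Sox family transcription factor, with a signal of 144.2 and ranks of 666, 571 and 765. Each of these 5 calls ranked within the strongest 1143 calls of every replicate list.

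The sixth IDR peak lay 107 bp upstream of RpS3A (FBgn0017545), a protein of the small ribosomal subunit. Its pooled signal was 107.2, rank 1125, and it ranked 3619 in replicate 1, 455 in replicate 2 and 1756 in replicate 4. It was the only one of the 6 whose rank in any replicate fell outside the strongest 1143, and it did so in replicates 1 and 4. The gw and Sox102F summits lay in introns of longer transcripts of the same genes, so 3 of the 6 peaks counted as promoter calls (within 500 bp of a TSS), 2 as intergenic and 1 as UTR exon.

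Below the IDR list, the next call was 57 bp upstream of an internal start site of CG31999 (signal 95.7, rank 1378). It was followed by a call 180 bp upstream of PlexA, a receptor for semaphorin guidance cues (signal 94.3, rank 1413). The PlexA call ranked 3578 in replicate 1, 1485 in replicate 2 and 894 in replicate 4. After these 2 calls the signal dropped to 68.6, at a call 3777 bp upstream of mir-9385, and to 67.9, at a call 280 bp upstream of CaMKII, the calcium and calmodulin dependent kinase of synapses. Of the 20 strongest calls, 11 were at promoters, 7 were intergenic, 1 was in the Cals 3′ UTR and 1 in an intron of gw. Calls of all 3 replicates overlapped 16 of them. The other 4 each lacked an overlapping call in 1 replicate: in replicate 4 the calls near CaMKII and 561 bp upstream of Asator, in replicate 2 a call 6243 bp upstream of mir-9385, and in replicate 1 the intronic gw call.

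Ranks of some of these calls differed widely between replicates. The call 111 bp downstream of a start site of ATPsynbeta, the beta subunit of the mitochondrial ATP synthase, ranked 1064 in replicate 1, 20932 in replicate 2 and 27870 in replicate 4. The call 27 bp upstream of Rad23, a carrier of ubiquitylated proteins to the proteasome, ranked 3306 in the pool, yet 10460, 23264 and 10442 in the replicates. The call 174 bp upstream of Gyf, a protein with a GYF domain, ranked 9406 in replicate 1, 1755 in replicate 2 and 6218 in replicate 4. The call 4460 bp upstream of fuss, a Ski and Sno family regulator, ranked 1113 in replicate 2 and 7846 and 7854 in replicates 1 and 4.

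**Figure D3:**
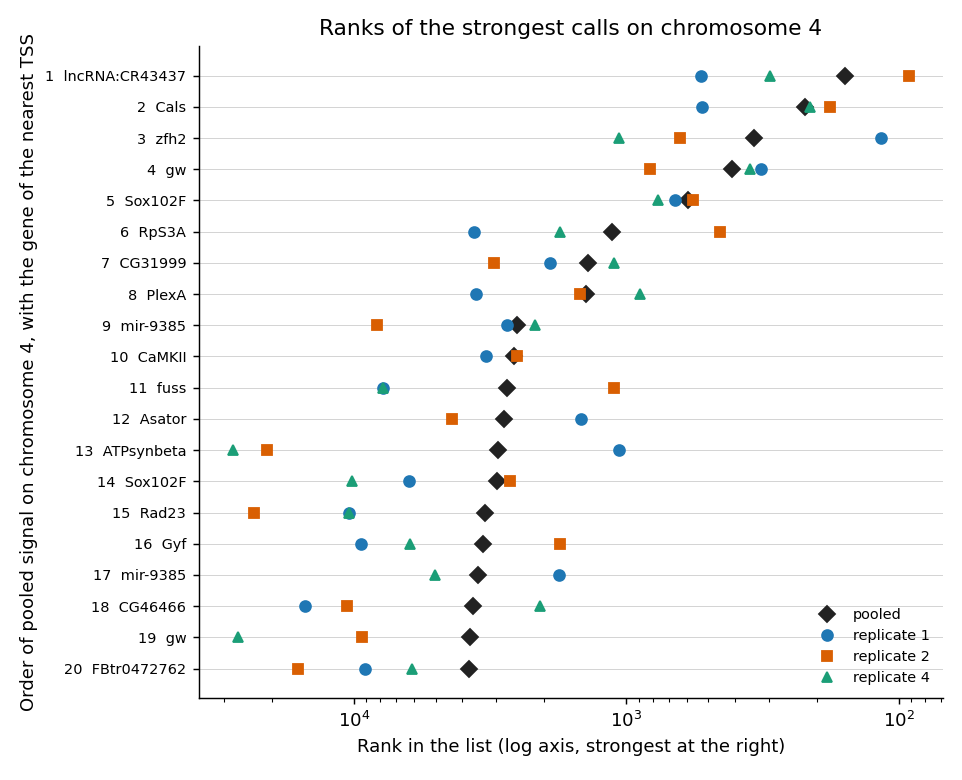
Rank by signal (x axis, log scale, strongest at the right) of the 20 strongest pooled calls on chromosome 4, listed from the top in order of pooled signal with the gene of the nearest TSS. Symbols give the rank in the pooled list and that of the strongest overlapping call in each replicate; a missing symbol means no overlapping call. The top 5 stay within rank 1067 in every replicate, and the ATPsynbeta call ranges from 1064 to 27870.

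Over all members, support by replicate 2 was the lowest. The pooled summit lay inside a call of replicate 1 for 57.1% of chromosome 4 calls, against 49.9% of arm calls, and inside a call of replicate 4 for 61.6%, against 49.7% of arm calls. For replicate 2 the share was 29.2% on chromosome 4, against 50.4% on the arms. All 3 replicates supported 54 chromosome 4 calls (9.61%, interval 7.44 to 12.3), against 13.2% of the arm calls and 13.2% over all pooled calls. Replicates 1 and 4 together supported 35.1% of chromosome 4 calls and 28.8% of arm calls. Among pooled ranks 1 to 5000 the share with all 3 was 54.8% on chromosome 4 (23 of 42) and 58.3% on the arms, and replicate 2 supported 73.8% there, against 73.2% on the arms. In ranks 10001 to 20000 replicate 2 supported 23.5% of chromosome 4 calls and 48.1% of arm calls. The pooled list was made from the same reads as the replicate lists, so these shares describe the lists and are no test.

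Chromosome 4 calls lay less often at start sites than arm calls did. Promoters held 83 of the 562 pooled summits (14.8%, interval 12.1 to 17.9), against 24.1% on the arms (interval 23.6 to 24.6). Sequence within 500 bp of a TSS makes up 10.7% of chromosome 4 and 13.6% of the arms, so the promoter share was 1.37 times the sequence share on chromosome 4 and 1.78 times on the arms. The difference in promoter share was -12.1 percentage points in replicate 1, -3.79 in replicate 2 and -9.49 in replicate 4, a mean of -8.45 ± 4.24 (SD, n = 3; exact sign-flip permutation test, p = 0.25, the smallest possible; adjusted p = 0.417). The share was lower in 3 of 3 replicates, but summits placed at random would also give this sign, as sequence near start sites is scarcer on chromosome 4. In replicates 1, 2 and 4 the ratio to the sequence share was 1.67, 1.23 and 1.37 on chromosome 4. On the arms it was 2.21, 1.25 and 1.78. Among pooled ranks 1 to 5000 the promoter share was 42.9% on chromosome 4 (18 of 42, interval 29.1 to 57.8) and 46.9% on the arms, and among ranks 10001 to 20000 it was 8.45% on chromosome 4 and 18.7% on the arms. A further comparison used the 198 arm windows of 100 kb at least 28.2% masked. Each was thus above the 27.8% of chromosome 4 as a whole, so they were not matched to it. They were sparsely called, with a pooled log2 density ratio of chromosome 4 over them of 2.86. Against these windows the mean difference in promoter share in the replicates was 0.384 points, with the sign reversed. Replicate 2 alone turned positive there, at 4.65 points, while replicate 1 had -2.93, replicate 4 had -0.563 and the pooled list -0.178.

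Outside promoters, introns held 45.4% of pooled chromosome 4 summits and 39.1% of arm summits, while UTR exons held 12.99% on chromosome 4 and 6.73% on the arms. Coding exons held 12.6% on chromosome 4 and 9.05% on the arms. Intergenic sequence held 12.5% on chromosome 4 and 20.04% on the arms. The sequence itself is 18.2% intergenic on chromosome 4 and 27.3% on the arms. The intergenic share was thus 0.685 times the sequence share on chromosome 4 and 0.733 times on the arms. For UTR exons these pooled ratios were 1.48 and 1.16. Neither order was shared by all replicates. For intergenic sequence the ratios were 0.769 on chromosome 4 and 0.619 on the arms in replicate 1. They were 0.706 and 0.848 in replicate 2, and 0.844 and 0.734 in replicate 4. For UTR exons they were 1.43 and 1.36 in replicate 1, 1.00 and 0.776 in replicate 2, and 1.25 and 1.54 in replicate 4. Introns make up 42.6% of chromosome 4 sequence, so its intron share was close to that of its sequence. Coding exons were below their 18.0% of the sequence in the pooled list. Replicate 2 had the highest share in this class on chromosome 4 and on the arms alike. It had 29.3% of its chromosome 4 summits in coding exons (73 of 249, interval 24.0 to 35.3), against 15.5% of its arm summits. Replicate 1 had 9.91% on chromosome 4 and 6.91% on the arms, and replicate 4 had 12.5% on chromosome 4 and 6.19% on the arms.

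**Figure D4:**
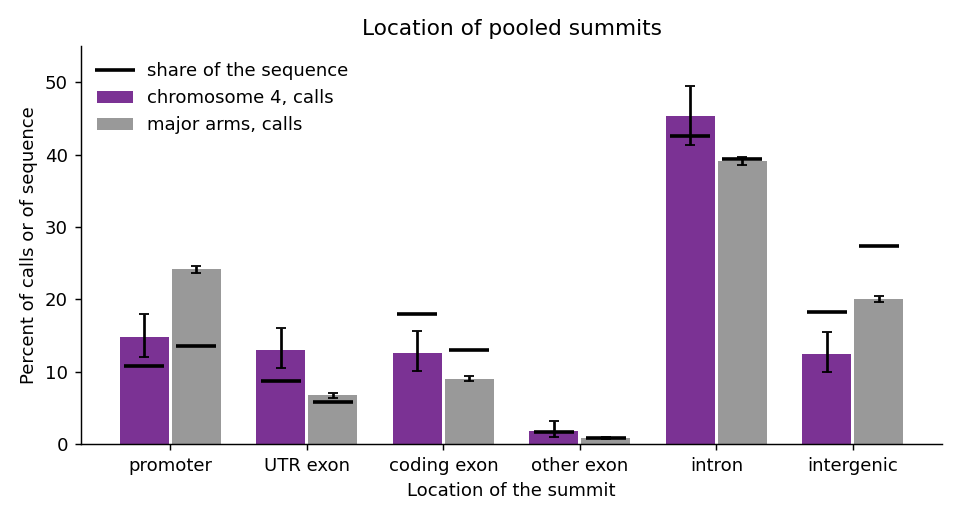
Percent of pooled summits (y axis) in each location class (x axis), with a bar for chromosome 4 and then a bar for the major arms, 95% Wilson intervals as error bars, and a black line at the share of the sequence in that class. The promoter bar is 14.8% on chromosome 4 and 24.1% on the arms, and both stand above their sequence lines.

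Calls inside annotated transposable elements were more frequent on chromosome 4 than on the arms, and rarer than its sequence holds. Elements contained 87 of the 562 pooled summits (15.5%, interval 12.7 to 18.7), against 1.01% on the arms. With elements over 24.8% of the chromosome and 5.74% of the arms, the summit share was 0.625 times the sequence share on chromosome 4 and 0.176 times on the arms. The difference in summit share was 11.0 percentage points in replicate 1, 12.3 in replicate 2 and 13.3 in replicate 4, a mean of 12.2 ± 1.13 (SD, n = 3; exact sign-flip permutation test, p = 0.25, adjusted p = 0.417). The share was higher in 3 of 3 replicates, but summits placed at random would also give this sign, as elements cover more of chromosome 4. The test against 0 therefore shows nothing particular to the calls. In replicates 1, 2 and 4 the ratio to the sequence share was 0.476, 0.535 and 0.581 on chromosome 4. On the arms it was 0.138, 0.173 and 0.199. The placement of reads that match several copies is not stated in any label or header used here.

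A single family, INE-1, held most of these summits. INE-1 is a short and very numerous transposon that is concentrated in pericentric heterochromatin and on the fourth chromosome. Its 344 annotated copies on chromosome 4 span 97346 bp and contained 62 of the 87 pooled summits, or 637 calls per Mb, against 417 per Mb for the chromosome as a whole. On the major arms 1891 copies contained 173 pooled summits, or 383 per Mb, against 222 per Mb for the arms. In replicate 2 chromosome 4 INE-1 copies held 20 summits, or 205 per Mb, and arm copies held 253 per Mb. The family 1360, a transposon of the P-element superfamily used in studies of silencing on the fourth, has 60 copies over 51076 bp there and contained 9 pooled summits. HeT-A, a telomeric retrotransposon, spans 44256 bp and contained 1.

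Summits on chromosome 4 lay in more AT-rich sequence than those on the arms. The mean GC content from 100 bp before to 100 bp after the pooled summits was 34.2% on chromosome 4 and 39.4% on the arms. On chromosome 4 it was 33.0% in replicate 1, 38.4% in replicate 2 and 33.0% in replicate 4, and on the arms 38.1%, 44.1% and 37.99%. The difference averaged -5.26 ± 0.377 percentage points (SD, n = 3; exact sign-flip permutation test, p = 0.25, adjusted p = 0.417) and was negative in 3 of 3 replicates. Among IDR peaks the gap was smaller, with a mean of 34.0% over the 6 on chromosome 4 and 34.8% over those on the arms. The whole chromosome has 35.2% GC, so in replicate 2 the summits lay above the mean of the chromosome and in replicates 1 and 4 below it. The arms as a whole have 42.2% GC, a wider gap from chromosome 4 than that between the summits. Summits placed at random would also give a negative difference. Its sign and the test against 0 therefore show nothing particular to the calls.

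The 3 replicates also differed in how their calls followed GC content on the arms. In arm windows of 24 to 28% GC, replicate 1 had 419.9 calls per Mb, replicate 2 had 92.3 and replicate 4 had 419.6. In arm windows of 44 to 48% GC the densities were 148.8, 252.8 and 155.6 calls per Mb. On chromosome 4, windows of 28 to 32% GC had 781 calls per Mb in replicate 1, 113 in replicate 2 and 749 in replicate 4. When the arm densities were weighted to the GC content of chromosome 4, in bins of 4 percentage points, the ratio of chromosome 4 to the arms was 1.56 in the pooled list. By replicate it was 1.62 in replicate 1, 1.00 in replicate 2 and 1.88 in replicate 4. In replicate 2 this setting expected 249.0 calls on chromosome 4 and 249 were found, a total over bins that differed in direction. Its ratio was 0.520 at 24 to 28% GC and 0.776 at 28 to 32%. At 32 to 36% it was 1.27, at 36 to 40% 0.983 and at 44 to 48% 1.21. GC content thus moved with the density ratio, and its part in the difference between replicates was not tested. This weighting was chosen after seeing the data.

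**Figure D5:**
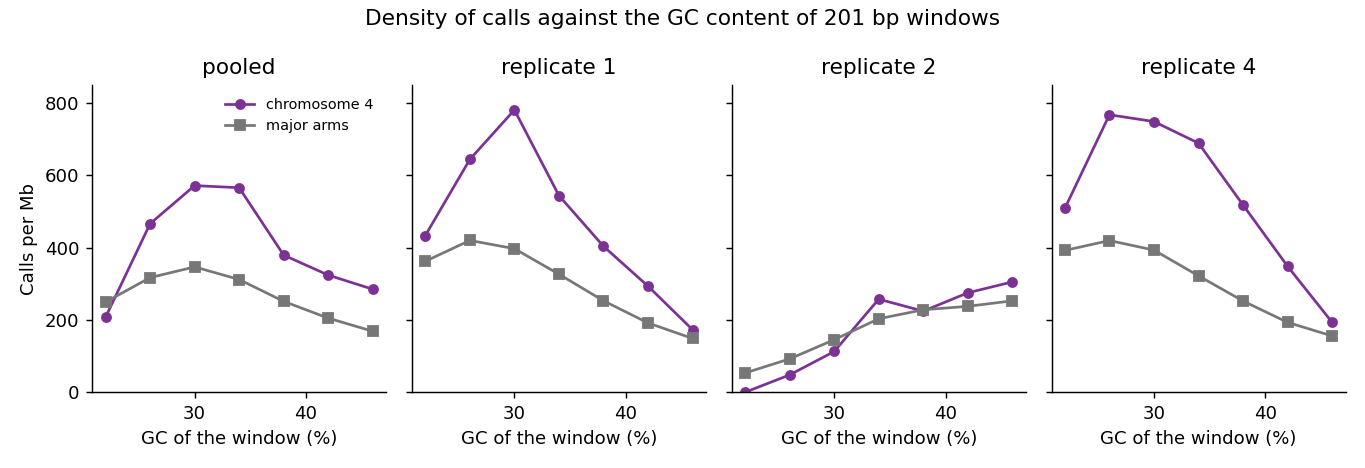
Calls per Mb (y axis) against the GC content of windows as long as those around the summits (x axis, bins of 4 percentage points), for chromosome 4 and the major arms, with a panel for the pooled list and for each replicate. At 28 to 32% GC chromosome 4 lies above the arms in replicates 1 and 4, at 781 and 749 calls per Mb, and in replicate 2 it has 113 against 145 on the arms.

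The frequency of short motifs around chromosome 4 summits was mostly that of the chromosome's sequence. Each motif was searched on both strands within 100 bp of every pooled summit and in consecutive windows of the same length along the chromosomes. TATAAA was found at 46.4% of chromosome 4 calls and 30.8% of arm calls, and in 38.4% of all windows of chromosome 4 and 21.6% of those of the arms. TATCGATA, the DNA replication-related element bound by DREF, was found at 2.67% of chromosome 4 calls and 1.35% of arm calls, and in 1.98% and 0.550% of all windows. CGATA, which is contained in TATCGATA, was found at 27.6% of chromosome 4 calls, against 22.8% of arm calls, and in 24.9% and 21.3% of all windows. GAGAG was found at 15.8% of chromosome 4 calls and 19.8% of arm calls, and in 17.4% and 21.6% of all windows. GCCAT, the core bound by Pho, was found at 23.1% of chromosome 4 calls and 33.2% of arm calls, and CANNTG, the E-box, at 50.9% and 63.5%. CACACACA was found at 1.42% of chromosome 4 calls and 4.04% of arm calls, and AAAAAAAA at 13.3% and 12.04%.

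A smaller share of chromosome 4 calls lay at promoters, yet a larger share of its genes had a call at a start site. A pooled summit lay within 500 bp of a TSS for 70 of 118 chromosome 4 genes (59.3%, interval 50.3 to 67.8), against 41.1% of arm genes and 41.2% of all genes. Among protein-coding genes it was 53 of 80 on chromosome 4 (66.3%) and 44.9% on the arms. By replicate, 65, 28 and 61 of these 80 genes had a call in replicates 1, 2 and 4, that is 81.3%, 35.0% and 76.3%, against 51.4%, 32.2% and 40.2% of arm protein-coding genes. In each replicate the share was higher on chromosome 4, by the smallest margin in replicate 2. These gene shares were not adjusted for the density of calls or for the length of sequence near start sites per gene. In replicate 2 the promoter share of summits was 1.23 times the sequence share on chromosome 4 and 1.25 times on the arms. Calls at a TSS in every replicate list were found for 23 of the 80 (28.8%), against 16.5% on the arms. For IDR peaks the order was the other way, with 3 of 118 genes on chromosome 4 (2.54%, interval 0.868 to 7.21), against 4.96% of arm genes and 4.94% of all genes. A pooled summit at a TSS that lay in a call of all 3 replicates was found for 21 of the 118 genes (17.8%, interval 11.9 to 25.7), against 11.1% of arm genes and 11.2% of all genes. Among protein-coding genes it was 17 of 80 on chromosome 4 (21.3%) and 13.2% on the arms. A single call can count for several genes here, as at mav, mir-954 and short entries inside mir-954, so genes are not independent units.

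All members of the 4 gene groups described next are protein-coding, so their counts can be read against the 66.3% of chromosome 4 protein-coding genes with a pooled call at a TSS and the 28.8% with one in every replicate. The groups were small, do not take in every gene of their kind and were not tested. Of 18 listed transcription factors and regulators, 13 had a pooled call at a TSS, a share near that of all protein-coding genes of the chromosome. By replicate 15, 5 and 14 had one in replicates 1, 2 and 4, and 3 had one in all of them. The median signal of the calls was 36.1. Besides Sox102F, the strongest were at the eye selector gene ey, a Pax6 homologue (signal 46.4, rank 5345, 32 bp downstream of the TSS), and at sv, the Pax2 homologue (signal 45.7, rank 5532). The ey call was overlapped by a call of replicate 1 (rank 7796) and by none of replicates 2 and 4. The sv call was overlapped in all 3, at ranks 10856, 9032 and 12502. Asator, also in the list, encodes a kinase of the tau tubulin kinase family and no transcription factor; its call 282 bp downstream of a TSS ranked 5799 in the pool.

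Neuronal and synaptic genes had a pooled call at a TSS in 9 of 12 cases, with 8, 5 and 9 in replicates 1, 2 and 4, 4 in all of them, and a median signal of 43.3. PlexA and CaMKII, described above, were the strongest. The call 350 bp downstream of a TSS of mGluR, the metabotropic glutamate receptor, had a signal of 50.8 and ranked 4411. The calls that overlapped it ranked 15943 in replicate 1, 2239 in replicate 2 and 17792 in replicate 4. Cadps, a factor for the priming of dense core vesicles, had a call 184 bp downstream of a TSS with rank 5171, and was overlapped in all 3 replicates, at ranks 10368, 8363 and 17484.

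Genes for translation, RNA and basic cell functions had a pooled call in 6 of 9 cases, with 8, 5 and 7 in replicates 1, 2 and 4 and 5 in all of them. This group held 2 of the 3 IDR peaks at a TSS, those of gw and RpS3A. Its median signal of 60.9, over 6 calls, was the highest of the 4 groups, an order that was not tested. ATPsynbeta and Rad23 followed gw and RpS3A, with signals of 62.7 and 59.1, and set that median. Their ranks differed widely between lists, as described above. Genes of signalling, adhesion and muscle had a pooled call in 5 of 11 cases, with 8, 1 and 10 in replicates 1, 2 and 4, and none in all of them. Their strongest calls were at apolpp, the precursor of the lipophorin apolipoproteins (signal 50.5), Zyx, the focal adhesion protein zyxin (43.9), Ank, an ankyrin (37.0), and Actbeta, a ligand of the activin type (36.2). The apolpp call was overlapped in replicate 1 (rank 8156) and replicate 4 (rank 3088), and the nearby Zyx call likewise (ranks 5316 and 15296), with no overlapping call of replicate 2 at either. The Actbeta call was overlapped in replicate 2 alone, at rank 4585.

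Counting summits over whole gene bodies, the long genes zfh2, pan, Sox102F and unc-13 held the most, with 21, 20, 19 and 19 pooled summits; they were chosen after their values were seen. zfh2, 39.1 kb long, had 23 summits in replicate 1, 13 in replicate 2 and 12 in replicate 4, but no pooled call within 500 bp of a TSS. pan, which encodes the TCF factor of Wnt signalling and is 44.9 kb long, had 25, 5 and 38. unc-13, a vesicle priming factor, had 20, 9 and 26 over 44.5 kb. Per kb of gene the 4 pooled values ran from 0.427 in unc-13 to 0.560 in Sox102F, and the chromosome as a whole had 417 pooled calls per Mb.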

How the data were processed

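Per the labels, the samples were 3 biological replicates of anti-GFP ChIP-seq in 1 group. The deposited notes say that peaks and background were called by the authors in each replicate and in the pooled alignments against 1 control alignment, and that an optimal list was then taken by IDR. The deposited signal of each call (narrowPeak column 7) was used only within a list. For the aligner, peak caller, read placement and IDR threshold, no tool or setting was given in the sources used here.

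Summits were placed in promoters (within 500 bp of a TSS), exons (UTR, coding, other), introns or intergenic sequence, in this order, with Ensembl release 115 (transposable elements left out as genes) and the RefSeq Release 6 sequence. Coordinates are 1-based dm6. Per-replicate values were compared with exact sign-flip permutation tests, and shares have 95% Wilson intervals. Named items were all IDR peaks on chromosome 4, the 20 strongest pooled calls and up to 4 genes per list with the strongest call at a TSS. Members and gene lists were chosen with earlier results of these data known. Scripts used Python 3.11.15, numpy 2.4.6, pandas 2.3.3, scipy 1.17.1 and matplotlib 3.10.9, and were tested on simulated data. Alternatives were other TSS, GC and motif windows, signal thresholds, overlap rules, reference regions, replicates left out and the dm3 lists. An untagged line and the control alignment were not analysed here.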

Additional observations from a re-analysis of the deposited data

How the results depend on the processing

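No paired analysis was possible because the samples form 1 group, with no second group whose replicate numbers could be matched; chromosome 4 and the arms were compared within each replicate. Leaving out each replicate in turn, the mean log2 density ratio ranged from 0.40 to 1.20, the rank difference from 0.93 to 4.56 points, the promoter difference from -10.8 to -6.64 points, the element difference from 11.6 to 12.8 points, the GC difference from -5.40 to -5.05 points and the share of pooled calls supported by all remaining replicates from 14.4% to 35.1%. Set against the 198 arm windows of 100 kb at least 28.2% masked, the pooled log2 density ratio was 2.86, the rank difference 9.80 points and the promoter difference -0.178 points, and the replicates' mean promoter difference reversed to 0.384. Against the 69 windows at least 20.7% covered by transposable elements, chosen after seeing the data, the log2 density ratio was 1.88. With masked sequence in place of annotated elements the pooled difference was 12.7 points, and with windows of 50 bp on either side of the summit the pooled GC difference was -4.75 points. Masked sequence held 32.0% of pooled chromosome 4 summits, above its 27.8% of the chromosome, while annotated elements held less than their share. In replicates 1, 2 and 4 masked sequence held 32.5%, 19.3% and 28.8% of chromosome 4 summits. Support by all 3 replicates was 14.9% with any overlap, against 17.8% on the arms, and 0.890% with the strongest calls alone, against 1.49%. Genes with a call at a TSS were 38.1% within 250 bp, 77.1% within 1000 bp and 36.4% in the third of calls with the highest signal, against 27.8%, 55.3% and 24.9% of arm genes. The cause of these shifts was not tested. The log2 density ratio of replicate 2 was -0.28 as counted. It stayed negative in the dm3 lists (-0.27), with overlapping calls merged (-0.29) and with weaker calls left out (-0.18). It was also negative in unmasked sequence (-0.22) and outside transposable elements (-0.12). It was 0.00019 at the same GC content, 0.17 against X alone, 0.43 against the element-rich windows and 1.15 against the masked windows. Depth is unknown, which limits all weak calls; 3 replicates cannot reach 0.05.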

Other observations

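In the dm3 lists, chromosome 4 held 563 pooled calls and 632, 246 and 730 calls of replicates 1, 2 and 4. The dm3 IDR list held 7 chromosome 4 peaks among 1325 (0.528%), against 6 of 1143 (0.525%) in the dm6 IDR list. The 6 strongest had signals from 106.7 to 243.5, and the seventh, at 1047713 to 1048088 of dm3, had a signal of 98.6. Of the 30 non-coding RNA genes of chromosome 4, 15 had a pooled call at a TSS (50%, interval 33.2 to 66.8), against 28.6% of those on the arms. These genes are not all independent. The single call with its summit at 626406 counts for mir-954 and also for FBtr0304451_df_nrg and FBtr0472762_df_nrg, short entries inside mir-954.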
